A study of Sus scrofa with 3 samples.

Results

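The genes described here encode enzymes that oxidise, reduce, hydrolyse and conjugate drugs, foreign chemicals, steroids, bile acids and related lipids. They were chosen by symbol, as every gene of the array whose name begins as a cytochrome P450, flavin monooxygenase, aldo-keto reductase, aldehyde or alcohol dehydrogenase, epoxide hydrolase, carboxylesterase, hydroxysteroid dehydrogenase, glutathione transferase, glucuronosyltransferase, sulfotransferase or NAT gene, with POR added. The rule found 76 of 6765 named genes, read by 108 of 23935 probe sets. It used no measured value, but it was chosen with earlier results of these data known. A few members carry a matching symbol but act on other substrates, among them ALDH18A1 of proline synthesis and NAT10, an acetyltransferase of RNA, and none of the NAT genes found (NAT6, NAT9 and NAT10) is an arylamine acetyltransferase.

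Lung tissue RNA was hybridised to Affymetrix porcine arrays, 1 array for each of 3 groups, from a sham minipig and from the left and right side of minipigs with lung ischemia-reperfusion. Minipigs are small breeds of pig. The sham array holds lung of a sham minipig, the operated array holds left lung whose pulmonary artery had been blocked transiently without the bronchus, so that it went on being ventilated, and the non-operated array holds the right lung after that surgery. Ages, sexes, times of occlusion and reperfusion, any pooling, and whether left and right lung came from 1 animal are given in none of the sources used here. With 1 array per group, differences carry no p-value and were not checked in a replicate, and the animal and the condition cannot be told apart. The Y-linked gene EIF1AY read 1.61 in sham, 1646 in the non-operated and 1893 in the operated lung, so sex may also separate sham from both other lungs, and its part in any ratio against sham was not tested.

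Such enzymes work in sequence. Cytochromes P450 of the endoplasmic reticulum take electrons from NADPH through the reductase POR and insert oxygen into their substrate, flavin monooxygenases oxidise nitrogen and sulfur atoms, and reductases, esterases and epoxide hydrolases act on other reactive groups. Transferases then attach glutathione, glucuronic acid or sulfate, which makes the product easier to excrete. The liver is their main organ, and the lung carries a smaller set in airway epithelium, type 2 cells, endothelium and macrophages. Receptors such as AHR, PXR (NR1I2) and CAR (NR1I3) and the oxidant-sensing factor NRF2 control many of these genes.

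Values are signals on the linear MAS5 scale unless a log2 ratio is named. A signal is low when it lies at or below the floor, the median of all probe sets on its array, which was 160.7 for sham, 158.6 for the non-operated and 158.7 for the operated lung. A signal at the floor or below it was set to the floor before a ratio was taken, so such a ratio is a bound, written with "at least". Signals of different genes come from different probes and are not set against each other. As a measure of error within the arrays, log2 ratios of probe sets for the same gene differed with a pooled SD of 0.39 in operated against sham over 801 genes, 0.41 in non-operated against sham over 783 genes and 0.22 in operated against non-operated lung over 820 genes. This SD used only probe sets above the floor on both arrays of a comparison, so it does not cover ratios that are bounds. It covers neither repeat arrays nor animals.

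Of the 76 enzyme genes, 35 were above the floor on every array, 9 on some arrays and 32 on none. In the operated lung 9 of 43 counted enzyme genes were at least 2-fold higher than in sham, 20.9%, against 8.65% of all 5097 named genes counted, and 2 were at least 2-fold lower, 4.65%, against 8.79%. In the non-operated lung 11 of 43 were higher, 25.6%, against 8.96% of all 5113 genes counted, and 1 was lower, against 8.55%. Both comparisons use the same sham array, so its own deviations enter each of them. The genes on the higher side were CYP7A1, UGT2B31, SULT1E1, FMO1, AKR1CL1, CES1, POR, SULT1A3 and EPHX1 in the operated lung. In the non-operated lung they were CYP7A1, FMO1, SULT1E1, UGT2B31, AKR1CL1, CES1, POR, CYP1A1, EPHX1, SULT1A3 and CYP2B22. On the lower side stood CYP3A29 and GSTA4 in the operated lung and CYP3A29 in the non-operated lung.

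The median log2 ratio over the counted enzyme genes was 0.29 in the operated lung, against -0.11 over all genes, and 0.13 in the non-operated lung, against -0.10 over all genes. At a 4-fold threshold 6 enzyme genes were higher in the operated lung, where 1.63% of all genes passed, and 7 in the non-operated lung, where 1.6% passed. Members that passed the floor through the lungs after ischemia-reperfusion alone had to differ from sham, so these counts describe the counted genes and not the family as a whole. Centring each comparison on the median of all genes would add 0.11 to each operated and 0.10 to each non-operated log2 ratio.

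**Figure D1:**
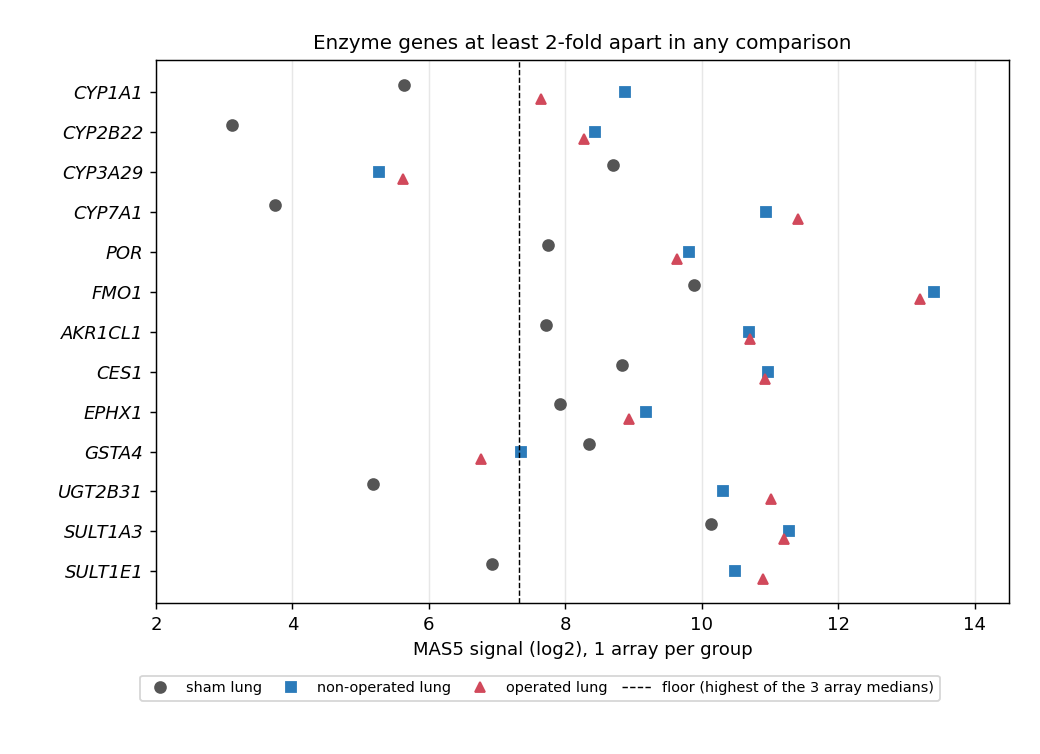
MAS5 signal (log2, horizontal axis) of the 13 enzyme genes that were at least 2-fold apart in any comparison, with 1 point per array (circle sham, square non-operated, triangle operated) and a dashed line at the highest of the 3 array medians. CYP7A1, UGT2B31, SULT1E1, CYP1A1 and CYP2B22 lie below the line in sham and above it in both other lungs, and CYP3A29 lies above it in sham alone.

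Among the P450 genes and POR, 12 of 29 were above the floor on any array. CYP7A1 encodes the cholesterol hydroxylase that opens bile acid synthesis in liver. Its signal was 13.4 in sham, 1969.9 in the non-operated lung and 2730.3 in the operated lung. The sham array was far under the floor, and the gene was at least 12.3-fold higher in the non-operated and at least 17.0-fold higher in the operated lung. These values rest on 1 probe set. Other P450s of bile acid and sterol turnover did not share this pattern. CYP8B1 and CYP27A1 were at or below the floor on every array. CYP39A1, an oxysterol hydroxylase, read 180.1 in sham, 197 in the non-operated and 240.1 in the operated lung, close to the floor throughout. CYP51, the demethylase of cholesterol synthesis, read 3155, 2144 and 2204 in the same order, which is 1.47-fold and 1.43-fold lower than sham.

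POR, the electron donor of the microsomal P450s, read 215 in sham, 898 in the non-operated lung and 799 in the operated lung. It was 4.18-fold and 3.72-fold higher than sham, and both other lungs lay clear of the sham value. At a floor on the 75th percentile, which lifts the sham signal, the POR log2 ratios were 0.56 and 0.39, under the 2-fold mark. Mitochondrial P450s use another electron chain, and its ferredoxin FDX1 read 944 in sham, 839 in the non-operated and 855 in the operated lung.

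CYP2B22 belongs to the CYP2B subfamily, which in liver is the classical barbiturate-inducible one. Its signal was 8.62 in sham, 347 in the non-operated and 309 in the operated lung. It was therefore at least 2.16-fold higher in the non-operated lung, and at least 1.92-fold higher in the operated lung, just under the mark. Centring on the median of all genes put its operated log2 ratio at 1.06, past it. The next measured gene on one side of CYP2B22 in the RefSeq annotation of the pig assembly Sscrofa11.1, CYP2A19, was at or below the floor on every array, with 4 annotated genes between them.

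CYP1A1 oxidises polycyclic hydrocarbons and is the classical target of the receptor AHR. It was the 1 counted enzyme gene at least 2-fold apart between the lungs after ischemia-reperfusion, with signals of 49.6 in sham, 467 in the non-operated and 199.7 in the operated lung. The operated lung was 2.34-fold lower than the non-operated lung. Against the sham floor the non-operated lung was at least 2.91-fold higher and the operated lung at least 1.24-fold higher. AHR itself read 276, 279.6 and 259 in sham, non-operated and operated lung and stayed within 2-fold. ARNT, listed with AHR among the receptors and regulators, was at or below the floor on every array and allows no ratio.

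CYP3A29, a porcine member of the subfamily that oxidises many drugs and steroids, was the P450 on the lower side. It read 415 in sham, 38.7 in the non-operated and 49.2 in the operated lung. Only the sham signal was above the floor, so the gene was at least 2.61-fold lower in each lung. CYP3A46, the gene next to CYP3A29 in the annotation, read 709.5 in sham, 739.6 in the non-operated and 917 in the operated lung, and CYP3A22 and CYP3A39 were at or below the floor on every array. At a floor on the 75th percentile CYP3A29 was not counted.

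The remaining P450 genes showed smaller differences or low signals. CYP2C91 read 487, 730.4 and 696 in sham, non-operated and operated lung, while the other 5 CYP2C genes were at or below the floor on every array. CYP2J34, of the subfamily that makes epoxides of arachidonic acid, was above the floor in the non-operated lung alone, at 241 against 91.3 in sham and 143 in the operated lung. CYP2D25 read 1805, 1333 and 1437 in the same order. Of the 4 genes for steroid-making P450s, CYP11A1, CYP17A1 and CYP19A1 were at or below the floor on every array. CYP19A3, an aromatase gene, had 8 probe sets, of which 7 were at or below the floor on every array and the brightest read 408, 328 and 351. Those for vitamin D and retinoic acid turnover, CYP24A1, CYP27B1 and CYP26A1, were at or below the floor on every array, as were CYP2A19 and CYP2E1.

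**Figure D2:**
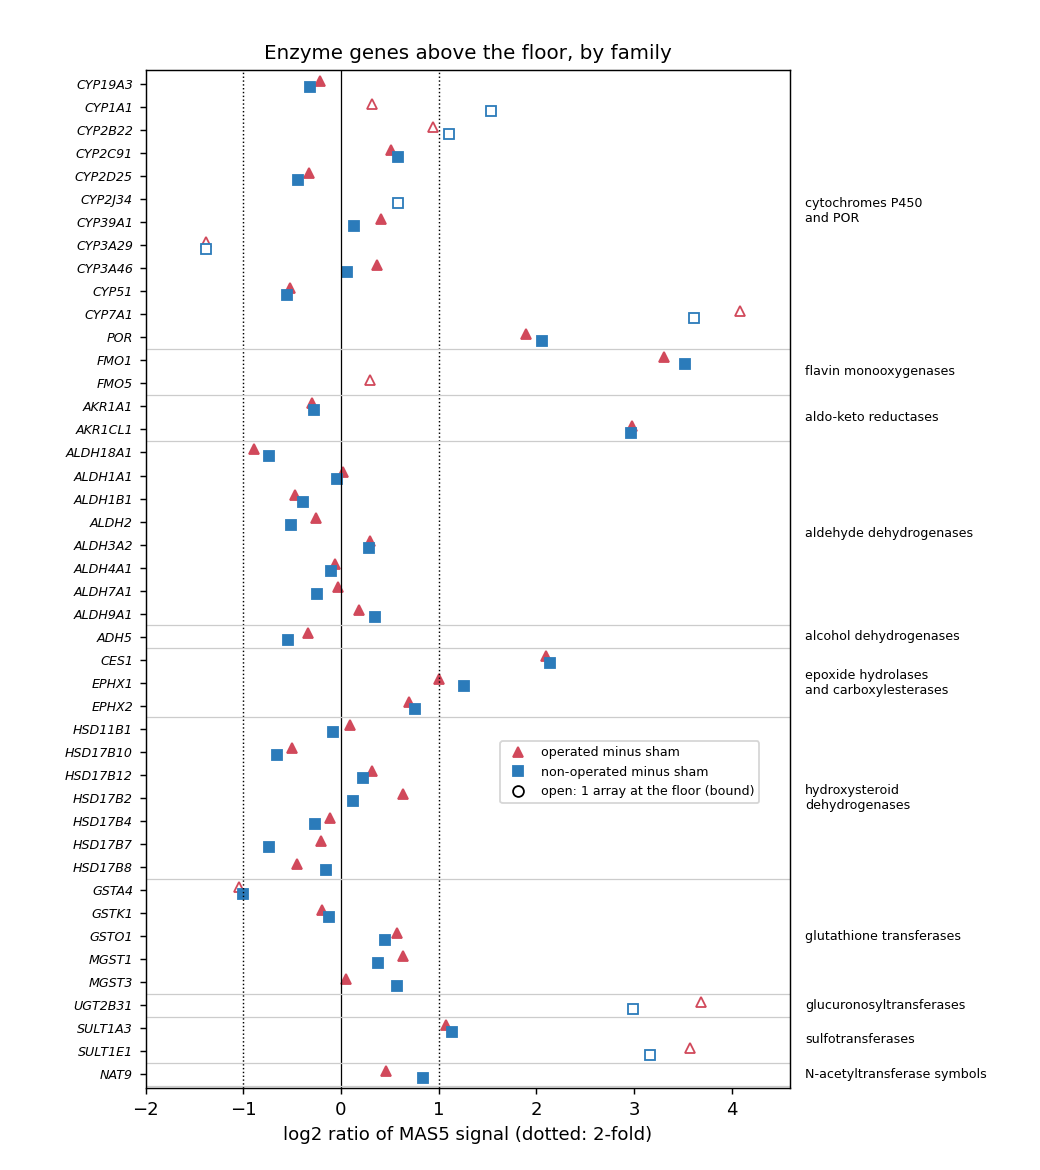
Log2 ratio of signal against sham (horizontal axis) for the 44 enzyme genes above the floor on at least 1 array, grouped by family, with triangles for the operated and squares for the non-operated lung. Open symbols are bounds with 1 array at the floor, and dotted lines mark 2-fold. Ratios of the aldehyde dehydrogenases and hydroxysteroid dehydrogenases lie between the dotted lines, and the sulfotransferases, UGT2B31, FMO1, AKR1CL1, CES1 and POR lie to the right of them.

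FMO1, a flavin monooxygenase that oxygenates amines and sulfides, had the largest ratio against sham among enzyme genes above the floor on all 3 arrays. Its signal was 946 in sham, 10890.4 in the non-operated and 9359 in the operated lung. This is 11.5-fold and 9.89-fold higher than sham, and FMO1 kept ratios of at least 3.24 on the log2 scale under each alternative tried. FMO5, the other measured member, read 84.7, 156.6 and 197, above the floor in the operated lung alone.

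Of the aldo-keto reductases, AKR1CL1 belongs to the subfamily that reduces steroids and other ketones. Its brightest probe set read 210.6 in sham, 1650.3 in the non-operated and 1663 in the operated lung, 7.84-fold and 7.89-fold higher. The other probe sets of AKR1CL1 gave smaller bounds. One read 18.3, 335 and 347 and was at least 1.06 and 1.11 higher on the log2 scale, and the other read 139, 194 and 238 with bounds of 0.27 and 0.56. All 3 probe sets lay on the same side of sham. AKR1A1, the general aldehyde reductase, read 1408, 1163 and 1142 in sham, non-operated and operated lung, and AKR1C1 and AKR1E2 were at or below the floor on every array.

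Among the hydrolases, CES1 cleaves ester drugs and lipid esters. It read 454 in sham, 2001 in the non-operated and 1946 in the operated lung, which is 4.40-fold and 4.28-fold higher. EPHX1, the microsomal epoxide hydrolase that opens epoxides made by P450s, read 243, 579 and 488 in the same order. It was 2.39-fold and 2.01-fold higher, so the operated value sat at the threshold. With a pseudocount of 50 in place of the floor its operated log2 ratio was 0.88. EPHX2, the soluble epoxide hydrolase of lipid mediators, read 399, 673 and 646 and stayed under 2-fold, and CES3 was at or below the floor on every array.

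The conjugating enzymes held some of the widest gaps. SULT1E1, the sulfotransferase that inactivates estrogens, read 122 in sham, 1436 in the non-operated and 1905 in the operated lung. It was at least 8.94-fold and at least 11.9-fold higher. SULT1A3, a phenol and catecholamine sulfotransferase, read 1123, 2472 and 2361, which is 2.20-fold and 2.10-fold higher. SULT2A1, which sulfates steroids and bile acids in liver and adrenal, was at or below the floor on every array.

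UGT2B31, the only glucuronosyltransferase gene found by the rule, read 36.1 in sham, 1276 in the non-operated and 2059 in the operated lung. It was at least 7.94-fold and at least 12.8-fold higher. Its other probe set read 18.2, 399 and 717 and gave log2 ratios of at least 1.31 and 2.16, so both probe sets placed sham below the floor and the other lungs above it. UGT2B genes are close copies of each other, as are the AKR1C, CYP2C, CYP3A and CYP19 genes, and a signal could include a near-identical transcript.

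Of 5 glutathione transferases counted in each comparison with sham, 0 were at least 2-fold higher, where 8.65% of all genes in the operated and 8.96% in the non-operated lung give less than 1 gene in 5, so the count is near the background. GSTA4 conjugates aldehydes of lipid peroxidation. The dimmer of its probe sets was at or below the floor on every array. The brighter read 326 in sham, 163.2 in the non-operated and 108.5 in the operated lung. The operated lung was lower than sham by at least 2.06-fold and the non-operated lung by 1.999-fold, on either side of the threshold by a small margin, and centring on the median of all genes put the operated log2 ratio at -0.93. MGST1, a microsomal transferase, read 4974, 6490 and 7736, and GSTO1 read 1276, 1740.4 and 1901. MGST3 read 2159 in sham, 3202 in the non-operated and 2238 in the operated lung, higher in the non-operated lung than in both others. GSTK1 stayed between 287 and 329, while GSTA1 and GSTM3 were at or below the floor on every array.

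Of 8 counted aldehyde dehydrogenases 0 were beyond 2-fold in any comparison. Over all genes 8.65% were higher and 8.79% lower in the operated lung, so few of 8 would be beyond 2-fold at that share. The aldehyde dehydrogenases had log2 ratios against sham between -0.89 and 0.30 for the operated lung, and between -0.74 and 0.35 for the other. ALDH1A1, which makes retinoic acid from retinal, read 6073 in sham, 5920.5 in the non-operated and 6163 in the operated lung. ALDH2, the mitochondrial enzyme of acetaldehyde oxidation, read 4661, 3268 and 3903. ALDH18A1 of proline synthesis lay furthest to the lower side, at 1116, 669.8 and 602. ADH5, which clears formaldehyde as its glutathione adduct, read 3154, 2162 and 2504.

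Of 7 counted hydroxysteroid dehydrogenases, 0 were beyond 2-fold, which at the same shares over all genes is near the background. They had medians of -0.12 and -0.15 against sham in the operated and non-operated lung. HSD11B1, which regenerates active glucocorticoid within tissues, read 2737 in sham, 2581 in the non-operated and 2922 in the operated lung. HSD11B2, which does the opposite reaction, was at or below the floor on every array. Of the 8 HSD17B genes, 6 were above the floor on at least 1 array. HSD17B10, a mitochondrial member, read 1124, 713 and 794, and HSD17B12, of fatty acid elongation, read 1213, 1413 and 1510.1. HSD17B2, which oxidises estradiol, read 172, 187 and 268, and HSD17B7 read 302, 181 and 263. HSD3B1 was at or below the floor on every array.

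NAT9 was the only gene of its kind above the floor, at 174 in sham, 312 in the non-operated and 239.6 in the operated lung. The 32 enzyme genes at or below the floor on every array had signals of at most 142 and allow no ratio. They are NAT6, NAT10, ALDH1L1, ALDH1L2, ALDH5A1, AKR1C1, AKR1E2, CES3, GSTA1, GSTM3, HSD3B1, HSD11B2, HSD17B1, HSD17B14, SULT2A1 and 17 P450 genes.

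**Figure D3:**
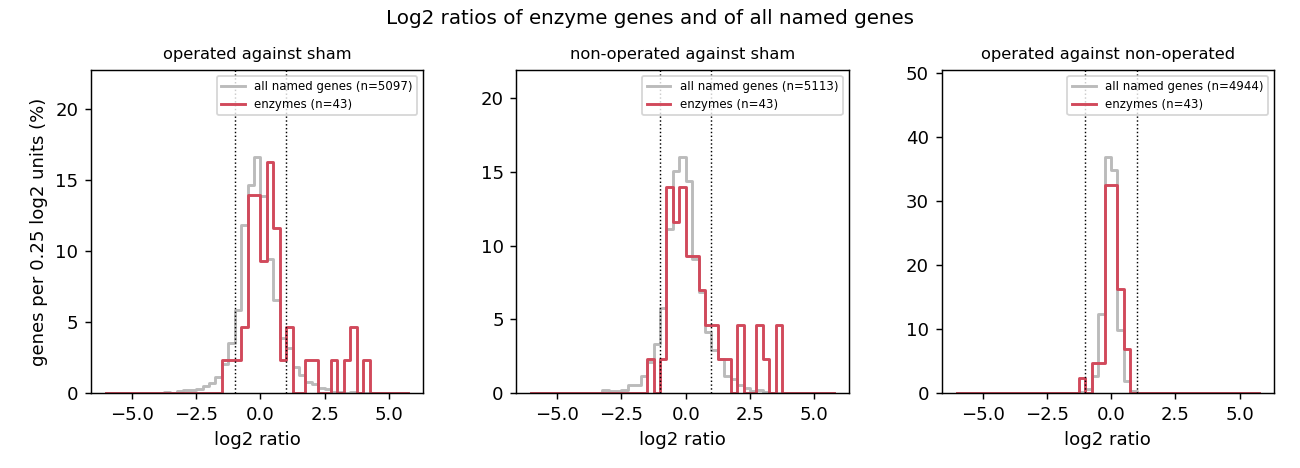
Share of genes (vertical axis, percent per 0.25 log2 units) by log2 ratio (horizontal axis) in the 3 comparisons, for all named genes counted (grey) and for the 43 enzyme genes counted (red), with dotted lines at 2-fold. Against sham the bulk of the enzyme genes overlaps the grey curve. A tail on the higher side reaches 4.09 in the operated and 3.62 in the non-operated lung, both bounds of CYP7A1 set by the sham floor.

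Between the operated and the non-operated lung the enzyme genes lay close together. CYP1A1 was the 1 gene of 43 at least 2-fold lower, against 0.182% of all 4944 named genes counted, and 0 were at least 2-fold higher, against 0.0607%. No test could be run with 1 array per group, so no p-value stands behind the 0. The median log2 ratio was 0.04, and the other 42 genes ran from -0.60 for CYP2J34 to 0.69 for UGT2B31. UGT2B31 was 1.61-fold higher in the operated lung, HSD17B7 1.45-fold, HSD17B2 1.43-fold, CYP7A1 1.39-fold and SULT1E1 1.33-fold. MGST3 was 1.43-fold lower in the operated lung. FMO1, AKR1CL1, CES1 and POR differed by 1.16-fold, 1.01-fold, 1.03-fold and 1.12-fold between these lungs.

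**Figure D4:**
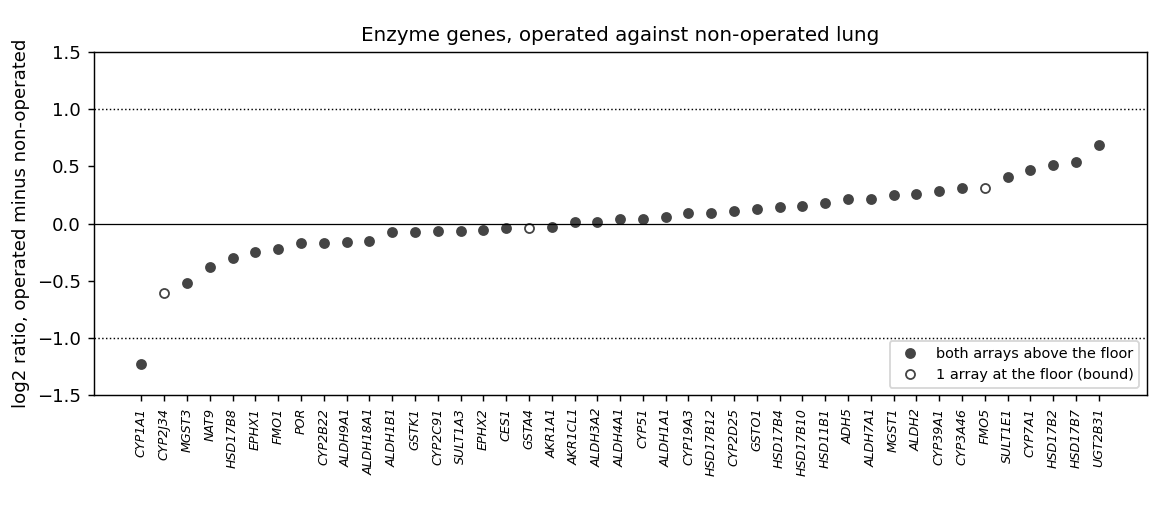
Log2 ratio of operated minus non-operated lung (vertical axis) for the 43 enzyme genes counted, in order of the ratio, with open circles where 1 array was at the floor and dotted lines at 2-fold. CYP1A1 at -1.23 is the one gene outside the dotted lines.

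Genes that supply or steer these enzymes were read from lists fixed with earlier results of these data known. Of 9 measured genes for cosubstrate supply, 2 were at least 2-fold higher in the operated and 3 in the non-operated lung, with 0 lower. Over all genes 8.65% and 8.96% were higher and 8.79% and 8.55% lower, so 0 of 9 lower is near the background. PAPSS2, which makes the sulfate donor used by SULT1E1 and SULT1A3, read 440.2 in sham, 2496 in the non-operated and 2517 in the operated lung, 5.67-fold and 5.72-fold higher. Its sister gene PAPSS1 read 1741, 1749 and 1815. GCLC, the rate-limiting enzyme of glutathione synthesis, read 502, 1417 and 1781, while its partner subunit GCLM read 232, 243 and 242. MAT2A, which makes the methyl donor S-adenosylmethionine, was 2.07-fold higher in the non-operated and 1.89-fold higher in the operated lung. The list median was 0.07 in the operated and 0.01 in the non-operated lung, so the higher genes were a minority of the list.

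Of 7 counted electron donors and partners, 1 was higher and 1 lower in each comparison with sham. Over all genes 8.65% were higher and 8.79% lower in the operated lung, and 8.96% and 8.55% in the non-operated lung. At these shares 1 of 7 on each side is near the background. CYB5B, the cytochrome b5 of the outer mitochondrial membrane, was the lower one, at 664 in sham, 325 in the non-operated and 276 in the operated lung. PGRMC1, a heme protein that binds P450s, was 2.19-fold higher in the operated and 1.89-fold higher in the non-operated lung. PGD, which makes NADPH in the pentose phosphate pathway, was 2.74-fold higher in the non-operated and 1.77-fold higher in the operated lung.

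Among other drug and quinone enzymes, 4 of 7 counted genes were at least 2-fold higher in each comparison with sham, against 8.65% and 8.96% of all genes, and 0 were lower, against 8.79% and 8.55%. NQO1, the quinone reductase, read 297 in sham, 1543 in the non-operated and 1551 in the operated lung. PON2, TXNRD1 and MAOA were 2.50-fold, 2.58-fold and 2.07-fold higher in the operated lung and 2.20-fold, 2.01-fold and 2.17-fold in the non-operated lung. Of the 26 receptors and regulators listed, 15 were measured, and 5 of these were above the floor. The genes of CAR (NR1I3) and NRF2 were not among those measured. PPARG, a lipid-sensing receptor, was the 1 counted regulator beyond 2-fold, at 72.3 in sham, 504 in the non-operated and 496 in the operated lung. With sham below the floor, it was at least 3.13-fold higher in the non-operated and at least 3.09-fold higher in the operated lung. At the shares over all genes given above, 1 of 5 is near the background. The glucocorticoid receptor gene NR3C1 read 633, 378 and 327, and NR1I2, PPARA, RXRA and HNF4A were at or below the floor on every array. Of 3 exporters measured, ABCB1 and ABCG2 were above the floor and within 2-fold.

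**Figure D5:**
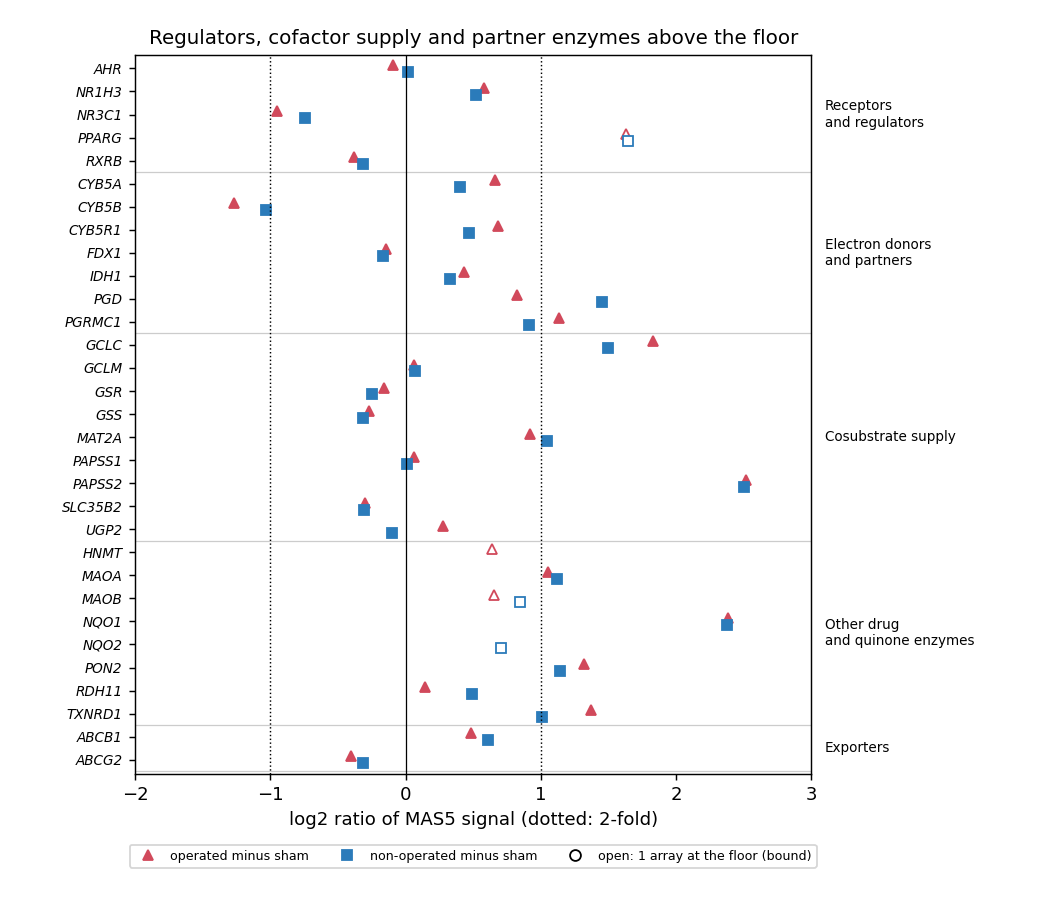
Log2 ratio of signal against sham (horizontal axis) for regulators, electron donors, cosubstrate enzymes, other drug enzymes and exporters above the floor on at least 1 array, with triangles for the operated and squares for the non-operated lung. Open symbols are bounds, dotted lines mark 2-fold, and PAPSS2 and NQO1 lie furthest to the right.

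The position of the enzyme genes was taken from the order of genes in Sscrofa11.1. SULT1E1 and UGT2B31 lie on the same chromosome with 14 annotated genes between them. The measured genes nearest to each of them, LOC100515741, LOC100515394 and the casein gene CSN1S1, were at or below the floor on every array. For the 13 enzyme genes beyond 2-fold in any comparison, the nearest measured genes on either side made 25 distinct genes, of which 16 were above the floor on at least 1 array and 3 were beyond 2-fold against sham in each comparison. That share is near the one over all genes, 8.65% higher and 8.79% lower in the operated and 8.96% and 8.55% in the non-operated lung. The 3 genes were NSMAF beside CYP7A1, on the lower side, and BTG2 beside FMO1 and ICK beside GSTA4, on the higher side. NSMAF read 1017 in sham, 487 in the non-operated and 508 in the operated lung, opposite to CYP7A1, and ICK lay opposite to GSTA4.

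Markers of tissue and cell types were read on the same arrays. Of 5 lung markers measured, 4 were above the floor on each array. SFTPC of type 2 cells read 22178, 24072 and 23424 in sham, non-operated and operated lung, and SFTPB read 739, 795 and 1734. AGER of type 1 cells read 32.2 in sham, below the floor, against 309 and 281 in the other lungs. Of 12 measured hepatocyte markers, 10 were at or below the floor on every array, among them ALB and TTR. APOA1 and TF were above it, TF at 229 in sham, 1254 in the non-operated and 1171 in the operated lung, and the summed signal of the list was 1447, 2778 and 2595. All 4 adrenal and gonad markers were at or below the floor on every array.

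Endothelial markers were at least 2-fold higher in 6 of 6 counted genes in the operated and 5 of 6 in the non-operated lung, with summed signals of 7280.1, 21311 and 21113. Macrophage markers were higher in 3 of 3 and 3 of 4 counted genes, with summed signals of 3337, 14896 and 15500.1. B and T cell markers were lower in 4 of 5 counted genes in each, with summed signals of 5064, 986 and 975. Over all genes, 8.65% were at least 2-fold higher and 8.79% lower in the operated lung, and 8.96% and 8.55% in the non-operated lung. In whole tissue, more cells of a type and more RNA per cell cannot be told apart. Of the airway secretory markers, 1 of 3 measured was above the floor, TFF3, at 1676, 2399.6 and 3512. Of the Y-linked genes other than EIF1AY, SRY was measured and was at or below the floor on every array. The part of these differences in the enzyme signals was not tested.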

How the data were processed

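The authors deposited 1 log2 value per probe set and array, computed with MAS5 per the submitters' processing notes; the sources used here name neither its version nor a scaling target. Linear means, with 2% trimmed at each end, were 495.1, 495.7 and 495.9 for sham, non-operated and operated lung, so no further scaling was applied. Of 23999 probe sets, 64 reporter controls were left out. Platform annotation named 1 gene for 10069 probe sets, several for 198 and none for 13668, and 75 of the 76 enzyme genes matched RefSeq by identifier, all with the same symbol. The probe set with the highest mean log2 signal stood for a gene. Of the 76 enzyme genes 55 had 1 probe set, among them CYP7A1, FMO1, SULT1E1, CES1 and POR, so no other probe set could be set beside it. A comparison counts a gene that exceeded the floor on either of its arrays, and a log2 ratio of 1 is the 2-fold threshold. Named are all enzyme genes beyond 2-fold in any comparison, the 2 brightest of each family, and others for contrast; further genes come from the lists. Members and lists were chosen with earlier results of these data known. Genes named outside this rule were chosen after their values were seen. The script was tested on simulated data. Python 3.11.15, pandas 2.3.3 and numpy 2.4.6 were used, and 8 alternatives of floor, scaling, pseudocount and probe set were tried. The number of arrays limits the precision, and no sequences were used here.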

Additional observations from a re-analysis of the deposited data

Results flagged for a closer look

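The rule leaves out 11 probe sets that carry a matching symbol beside another gene's, so their transcripts cannot be assigned to 1 gene. Of these, 3 were above the floor on at least 1 array and 2 were beyond 2-fold against sham. The first read 114 in sham, 438 in the non-operated and 604 in the operated lung, with log2 ratios of at least 1.45 and at least 1.91. The other read 2117, 5388 and 5854 in the same order, with log2 ratios of 1.35 and 1.47. Both signals lie outside the comparisons above and were higher than in sham on each of the other arrays.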

How the results depend on the processing

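There were 24 pairs of an enzyme gene and a comparison beyond 2-fold. Of these, 20 stayed beyond it under every alternative that gave the pair a ratio, and 0 changed direction. The exceptions were POR against sham in both lungs, EPHX1 and GSTA4 in the operated lung, with the values given above. The pairs of CYP3A29, CYP1A1, CYP2B22, EPHX1 and GSTA4 had no ratio at a floor on the 75th percentile, so they were not checked there. GSTA4 also had none from the mean of all probe sets. Counting each probe set by itself was not part of this check. There 1 probe set of AKR1CL1 had bounds of 0.56 in the operated and 0.27 in the non-operated lung, within 2-fold. The counts depend most on the floor. Without a floor 19 enzyme genes were higher and 8 lower in operated against sham (median 0.16), 17 and 4 in non-operated against sham, and 5 and 4 in operated against non-operated lung; these counts include signals below the array medians, and of all 6765 genes 744 were then higher and 877 lower, 814 and 848, and 231 and 319 in the same order, against 76 enzyme genes. A floor on the 25th percentile gave 4 lower genes of 66 in operated against sham, where 9.87% of all genes were lower. The median was then 0.043 in operated against sham and -0.026 in operated against non-operated lung. A floor on the 75th percentile left 27 genes, with 7 higher in non-operated against sham, where 7.48% of all genes were higher. It left 0 lower in all 3 comparisons. Of all genes 6.04% were then lower in operated and 5.92% in non-operated against sham, and 0.136% in operated against non-operated lung. Few of 27 would be lower at those shares. The medians were 0.19 and 0.26 in operated and non-operated lung against sham. Centring gave 1 lower gene in operated against sham, where 6.87% of all genes were lower. Its medians were 0.41 in operated and 0.23 in non-operated against sham. A pseudocount of 50 gave an operated median of 0.10. The mean of all probe sets gave 1 lower gene in operated against sham, where 8.59% of all genes were lower. It gave a median of 0.28 in non-operated against sham, and counting each probe set gave 0.27 there. The cause was not tested, except that each floor changes which genes are counted. No paired analysis was possible because each group holds 1 array.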
